A study of Mus musculus with 12 samples.

Results

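The genes that encode the proteasome were described across mouse hippocampi with and without exposure to Gulf War toxicants. Members were all genes of the table whose symbol starts with Psma to Psmg and a number, without pseudogene symbols and without Psmb8 and Psmb9. The rule found 48 of 41743 genes. They fell into 17 genes of the core particle, 17 of the regulatory particle and 13 for activators, an inhibitor and assembly chaperones, and Psmc3ip, which matched by spelling only and is not a subunit. The animals were male C57Bl/6 mice aged 12 weeks. The toxicant group was injected under the skin daily, Monday to Friday, for 2 weeks with 2.5 mg/kg pyridostigmine bromide (a cholinesterase inhibitor), 12.5 mg/kg chlorpyrifos (an organophosphate insecticide) and 7.5 mg/kg DEET (an insect repellent), and the control group is labelled vehicle. No allele is named for either group. Hippocampi were taken at the end of the exposure, from different animals, and polyadenylated RNA was sequenced. The labels give 6 control and 6 toxicant samples. Controls 4 and 5 share the same value in every gene and stand here as 1 library, control 4-5, which leaves n = 5 control and n = 6 toxicant libraries.

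The proteasome degrades proteins that carry ubiquitin chains. Its core particle is a barrel of stacked rings, in which outer alpha rings form a gate and inner beta rings hold the catalytic subunits, with Psmb5 giving the chymotrypsin-like, Psmb6 the caspase-like and Psmb7 the trypsin-like activity. The regulatory particle caps the barrel: its lid removes ubiquitin, and its base binds ubiquitin chains and uses ATPases to unfold the protein and thread it into the core. In neurons the complex supplies protein turnover in cell bodies and at synapses, and subunit genes are known to be transcribed together, in part through Nfe2l1, a transcription factor that restores proteasome production when activity drops.

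Levels are given as RPKM, read density per unit of a gene's exon length at equal sequencing depth. Multiplied by exon length, the values gave back whole reads, with 21.5 M to 34.9 M reads behind the scale of a library. The share of these reads that was counted on genes of the table ran from 76.8% to 89.5%, with control 1, control 3 and control 6 highest and control 2, toxicant 2 and toxicant 4 lowest. Whether reads in introns were counted is not given, so the remainder may hold reads from inside genes. Testing required a mean of 0.5 RPKM or more, which was met by 44 of the 47 proteasome genes and Psmc3ip. The 3 below that level were Psma8, a testis alpha subunit (0.041 RPKM in control and 0.039 in toxicant libraries), Psmb11, the thymus beta subunit (0.033 and 0.044 RPKM), and Psme2b, a near-identical copy of Psme2 (0.281 and 0.400 RPKM), whose reads may belong to Psme2. Psmc3ip, a recombination factor, was at 1.20 ± 0.158 and 1.05 ± 0.139 RPKM (adjusted p = 0.338, limma) and is left out of the counts below. The tested proteasome genes rested on a mean of 112 reads (Psmg4) to 3976 reads (Psmd2) per library.

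No proteasome gene differed between toxicant and control past the test (limma on log2(RPKM + 0.5), Benjamini-Hochberg adjusted p under 0.05 over 13493 genes). Adjusted p ran from 0.225 to 0.933, and no gene of the table was called either (0.00% higher and 0.00% lower). At an unadjusted p under 0.05, 5 of the 44 tested members were lower (Psma5, Psmb1, Psmb2, Psmb3 and Psmd11), or 11.4%, beside 17.0% of all genes tested, and none was higher, beside 3.33%. The point estimates nevertheless leaned one way: 40 of 44 members had a lower mean in toxicant libraries, or 90.9%, beside 70.0% of all genes. After median-ratio scaling these shares were 35 of 44 members and 54.1% of all genes, and after quantile scaling 31 of 44 and 60.3%. The exceptions on the deposited scale were Psma1, Psmc6, Psmd10 and Psme4. The median log2 difference, toxicant minus control, was -0.23 for the core particle, -0.19 for the regulatory particle and -0.16 for activators, inhibitor and chaperones, beside -0.11 over all genes tested. All such differences are on the log2(RPKM + 0.5) scale, on which low genes appear to differ less than they do. In bulk tissue, fewer cells of a type and less RNA per cell cannot be told apart.

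The control libraries were spread widely. Their log2 range was larger than the difference between groups for 44 of 44 members, as for 96.9% of all genes. Control 2 was the lowest control for 38 of 44 members (51.6% of all genes), and control 1 the highest for 30 of 44 (39.6%). For 17 of 44 members the toxicant range lay inside the control range (36.4%). No member had all 6 toxicant libraries below the lowest control (2.03% of all genes) or above the highest (0.111%), although all 6 lay below the control median for 33 of 44 (44.9% of all genes). At least 1 toxicant library lay below the lowest control for 27 of 44 members (52.3% of all genes).

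The summed level of the core particle was 528 RPKM in control 1, 322 in control 2, 482 in control 3, 401 in control 4-5 and 481 in control 6. It was 387 in toxicant 1, 326 in toxicant 2, 386 in toxicant 3, 330.0 in toxicant 4, 402 in toxicant 5 and 415 in toxicant 6. Controls 1, 3 and 6 thus stood above every toxicant library, control 4-5 stood among them and control 2 below them all. The 3 libraries with the highest core level were also the 3 with the highest share of reads on genes, and the 3 lowest were the same in both. Levels of Malat1, a long noncoding RNA kept in the nucleus, ran the other way, with 46.0 RPKM in control 1, 70.5 in control 3, 84.6 in control 6, 222 in control 4-5 and 345 in control 2, and 158 to 339 in toxicant libraries. Once each library's share on genes was entered as a covariate, the median difference was 0.02 for the core, 0.02 for the regulatory particle and -0.0041 for the other members, beside -0.03 for all genes, and 19 of 44 members were below 0 (61.2% of all genes). The share itself differed by group, at 85.4 ± 4.58% (SD) in control and 80.8 ± 2.68% (SD) in toxicant libraries, and comes from the same values. In this fit, here and for single genes below, share and exposure cannot be told apart.

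The calls depended on control 2. Without it, 25 of 44 members were lower past the test (56.8%, beside 28.1% of all genes tested) and 1, Psme4, was higher (8.56% of all genes). The 25 were 10 of 15 core, 11 of 17 regulatory and 4 of 12 other members, and the medians were -0.36, -0.27 and -0.25. Leaving out any other single library called no gene.

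**Figure D1:**
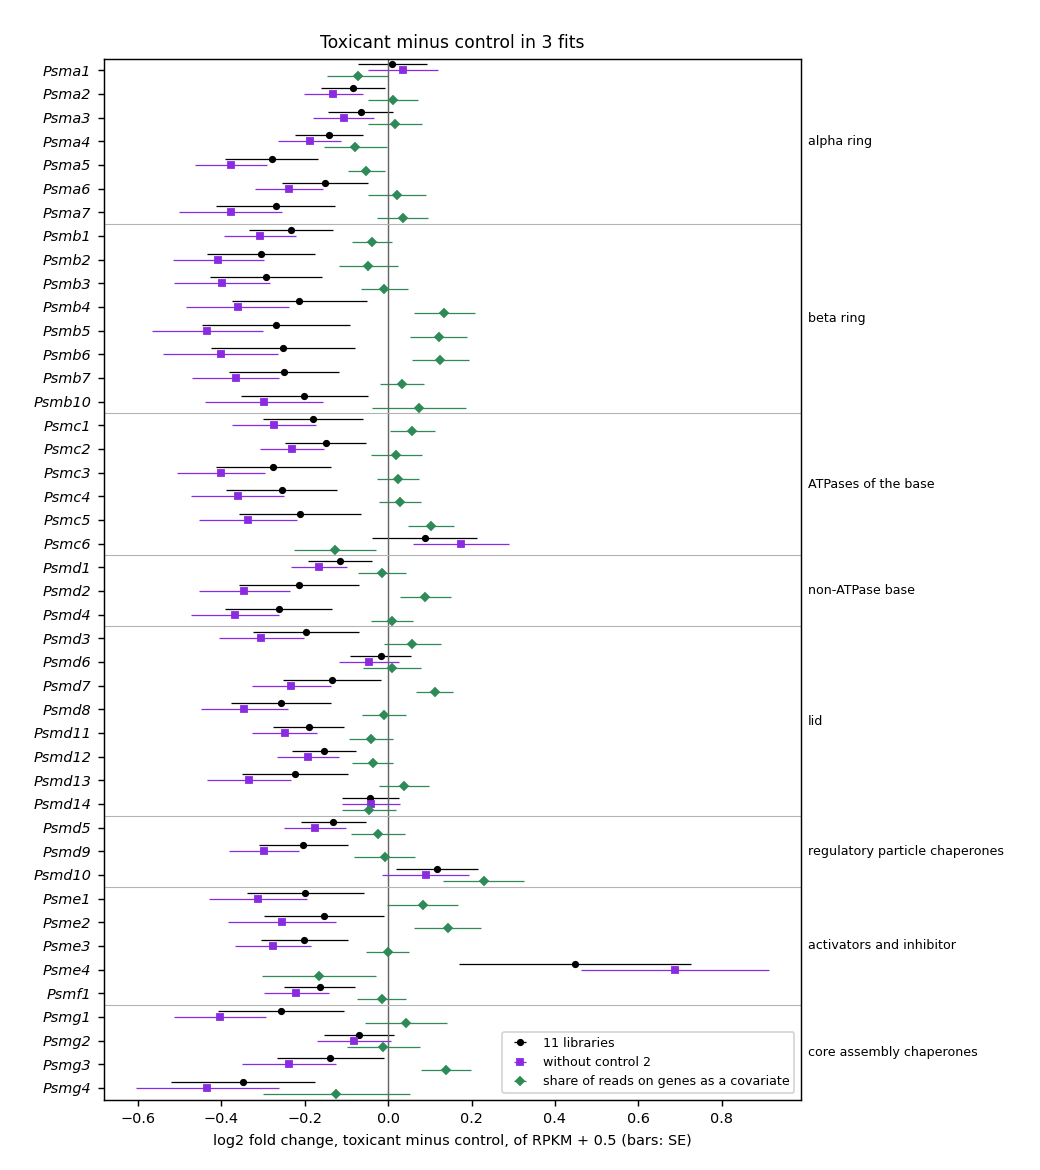
Log2 difference, toxicant minus control, of each of the 44 tested proteasome genes by role, with its standard error from limma, in 3 fits: 11 libraries, without control 2, and with the share on genes as a covariate. Over 11 libraries 40 genes lie below 0 and Psme4 stands highest at 0.45; without control 2 most points lie farther from 0, and with the covariate 19 of 44 lie below 0.

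**Figure D2:**
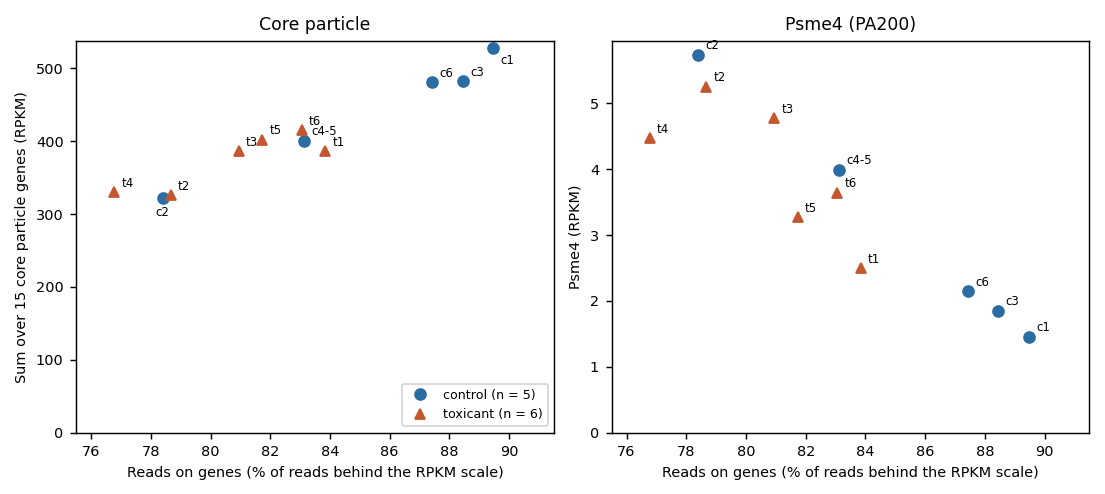
Summed level of the 15 tested core genes (left) and level of Psme4 (right), in RPKM, against the percent of reads on genes, with a point per library. Controls 1, 3 and 6 lie at the high end of the share, with the highest core and lowest Psme4 levels, and control 2 lies with toxicant 2 and toxicant 4 at the low end.

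Among core genes the control means spanned 7.13-fold, from Psmb10 at 12.8 RPKM to Psmb5 at 91.1 RPKM. Without Psmb10, the order in control libraries was Psmb5, Psmb4 (46.6), Psma6 (41.1), Psmb2 (34.6), Psmb6 (33.2), Psma5 (31.7), Psmb7 (26.0), Psma4 (22.0), Psma7 (19.97), Psmb3 (19.5), Psmb1 (17.7), Psma3 (17.2), Psma1 (15.4) and Psma2 (13.9 RPKM). In each of the 13 neighbouring pairs the ranges of the control libraries overlapped. Subunits that sit in the same ring in equal number thus differed severalfold in RPKM, a scale that depends on the exon length used. Psmb5 and Psmb1 had nearly equal reads, means of 1988 and 2010 per library, over 899 and 4595 exon bases. Psmb2 had fewer, 1010 reads over 1204 bases. The exon bases are those of all annotated exons of a gene, so whether the order follows transcript number cannot be told.

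**Figure D3:**
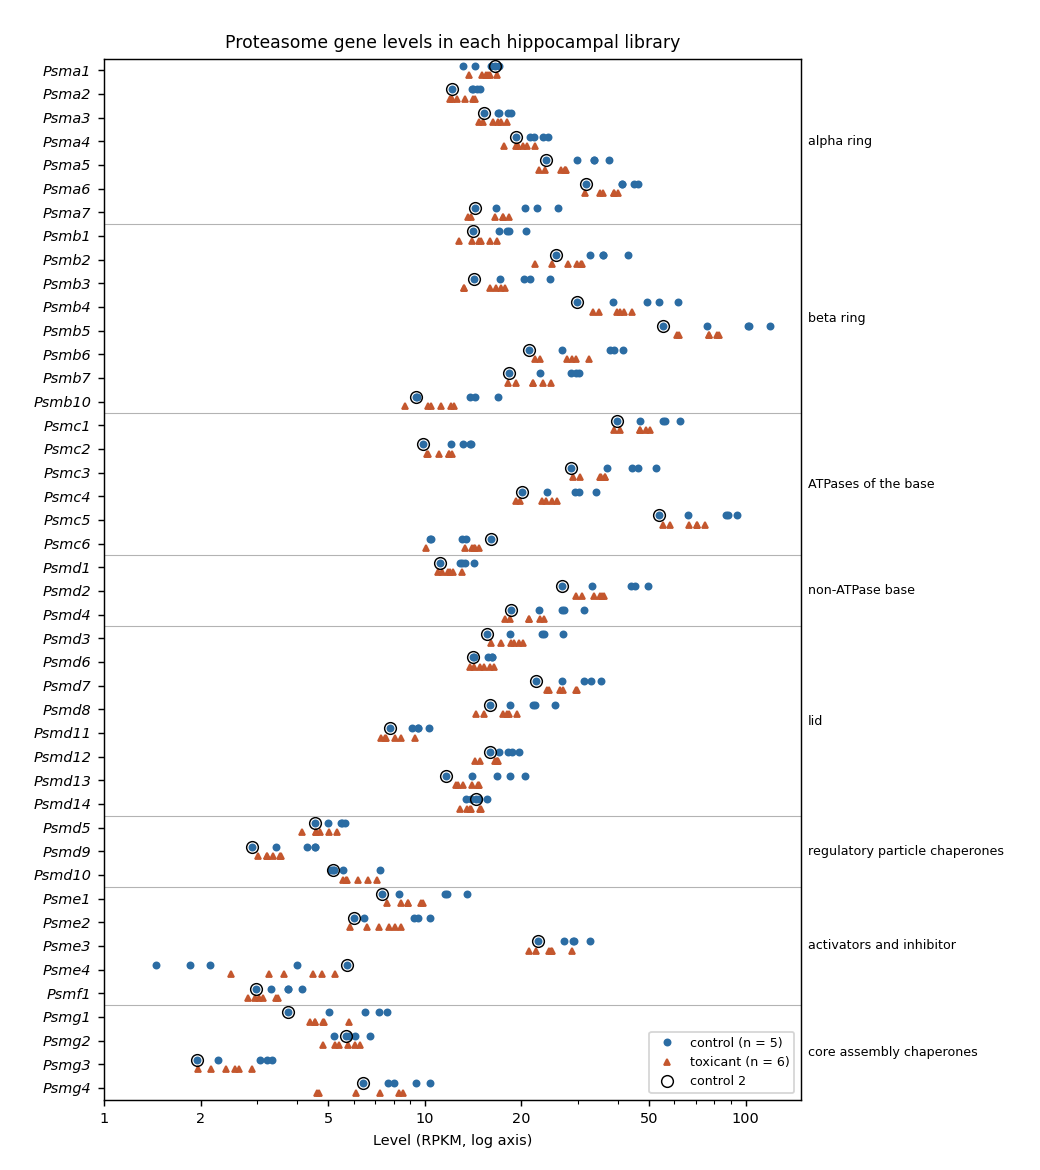
RPKM of the 44 tested proteasome genes in each library on a log axis, grouped by role, with a point per library (5 control, 6 toxicant) and a ring around control 2. Control and toxicant points overlap for each gene, and control 2 is the lowest control for 38 genes and the highest for Psmc6 and Psme4.

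In the alpha ring, whose subunits gate entry to the barrel, 6 of 7 tested genes had a lower mean in toxicant libraries (4 of 7 after median-ratio and 2 of 7 after quantile scaling), with a median difference of -0.14. Psma5 (ENSMUSG00000068749, a protein-coding gene at chr3:108256926-108279974 in GRCm38) was at 37.4, 23.8, 33.8, 29.8 and 33.8 RPKM in control 1, 2, 3, 4-5 and 6, and at 27.5, 23.6, 26.6, 22.6, 27.3 and 27.3 RPKM in toxicant 1 to 6. All toxicant libraries lay below control 4-5 and around control 2. The means were 31.7 ± 5.16 RPKM (SD, n = 5) and 25.8 ± 2.15 (SD, n = 6), a log2 difference of -0.28 ± 0.11 (SE) with an adjusted p of 0.225 by limma. Without control 2 it was -0.38 with an adjusted p of 0.0230, the lowest over 21 alternatives, which ran up to 0.646. With the share covariate it was -0.05. Psma1 was the one alpha gene without a lower mean, at 15.4 ± 1.59 and 15.5 ± 1.02 RPKM, a difference of 0.01 ± 0.08 (adjusted p = 0.933, limma). Its lowest control was control 1, at 13.2 RPKM, and control 2 was at 16.5, so its libraries were ordered differently from those of Psma5.

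All 8 tested genes of the beta ring had a lower mean, as they did after median-ratio and quantile scaling, with differences between -0.30 and -0.20 and a median of -0.25. With the share covariate, 3 of 8 were lower and the median was 0.05. Psmb5 (ENSMUSG00000022193, chr14:54614119-54618022), the chymotrypsin-like subunit and the target of proteasome inhibitor drugs, was at 119, 55.5, 101.96, 75.9 and 102.7 RPKM in control 1, 2, 3, 4-5 and 6. Toxicant 1 to 6 were at 77.1, 61.8, 76.7, 60.95, 82.8 and 81.6 RPKM, between control 2 and the 3 highest controls. The difference was -0.27 ± 0.18 (means 91.1 ± 25.2 and 73.5 ± 9.69 RPKM, adjusted p = 0.327, limma), and it was 0.12 with the share covariate. The gene Mir686 shares 12.1% of its exon bases.

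Psmb6, the caspase-like subunit, was at 41.6, 21.2, 37.7, 26.8 and 38.8 RPKM in control and 28.7, 22.0, 27.8, 22.8, 29.6 and 32.4 RPKM in toxicant libraries. Its difference was -0.25 ± 0.17 (adjusted p = 0.337, limma). Psmb7, the trypsin-like subunit, was at 30.2, 18.4, 29.7, 22.9 and 28.7 RPKM in control and 23.3, 18.2, 21.7, 19.3, 21.8 and 24.7 RPKM in toxicant libraries. Its difference was -0.25 ± 0.13 (adjusted p = 0.268, limma), and 11.8% of its exon bases are shared with Nek6 on the opposite strand. In Psmb6 and Psmb7, as in Psmb5, controls 1, 3 and 6 were the highest libraries and control 2 was among the lowest. Psmb2, a structural beta subunit, had the largest difference of the ring, -0.30 ± 0.13 (34.6 ± 6.24 against 27.8 ± 3.59 RPKM, adjusted p = 0.234, limma). With the share covariate the difference was 0.13 for Psmb6, 0.03 for Psmb7 and -0.05 for Psmb2.

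Psmb10 is the inducible form of the trypsin-like subunit, which replaces Psmb7 in immune cells and after interferon. It was at 12.8 ± 3.26 RPKM in control and 10.8 ± 1.36 in toxicant libraries, -0.20 ± 0.15 (adjusted p = 0.373, limma). The log2 ratio of Psmb10 to Psmb7 within a library averaged -1.01 ± 0.155 (SD) over the controls and -0.96 ± 0.121 (SD) over the toxicant libraries, a difference of 0.05 (two-sided exact permutation p = 0.561 and 0.788 after adjustment over 3 ratios, smallest possible p 0.00216). The other inducible subunits, which the rule leaves out, were scarce: Psmb8 was at 0.630 ± 0.135 and 0.464 ± 0.0885 RPKM, and Psmb9 at 0.316 ± 0.0503 and 0.208 ± 0.0423 RPKM. Their log2 ratios to Psmb5 and Psmb6 differed by 0.04 and 0.05 (adjusted exact permutation p = 0.788 for each), with signs that turned at a pseudocount of 0.1, to -0.10 and -0.18. Psmb8 passed the test filter but lay near the pseudocount of 0.5, with a difference of its own of -0.23 ± 0.11 (adjusted p = 0.248, limma). Psmb9 lay under the filter and below the pseudocount, so both ratios rest on that choice. Of the 6 toxicant libraries, 3 lay below the lowest control for Psmb8 and 5 for Psmb9. Psmb8 and Psmb9 were far below their constitutive forms in each library.

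Promoter sequence is shown for 4 members as examples of the short motifs counted below, chosen with their values known. Of the 47 proteasome genes, 39 had at least 1 promoter in the RefSeq set used (42 promoters, GRCm38.p6). Psmb5 and Psmb6 carried TGACNNNGC, the core of the antioxidant response element that Nfe2l1 and related factors bind, Psmd2 carried CCGGAAG, a core bound by ETS factors, and Psmc6 carried both. The lines give bases before the gene start, 5′ to 3′ on the gene's strand, with matches on either strand in capitals.
Psmb5 (chr14:54618023-54618245, minus strand): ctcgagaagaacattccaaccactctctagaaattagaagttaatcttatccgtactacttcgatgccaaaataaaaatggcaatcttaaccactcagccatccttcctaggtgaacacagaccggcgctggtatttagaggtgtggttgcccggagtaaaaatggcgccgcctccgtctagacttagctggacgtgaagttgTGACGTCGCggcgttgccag
Psmb6 (chr11:70525107-70525356, plus strand): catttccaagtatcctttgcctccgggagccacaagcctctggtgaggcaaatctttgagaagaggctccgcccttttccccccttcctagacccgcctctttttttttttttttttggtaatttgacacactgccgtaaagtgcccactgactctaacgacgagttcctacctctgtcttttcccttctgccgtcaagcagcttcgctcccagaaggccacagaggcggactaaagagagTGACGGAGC
Psmd2 (chr16:20651402-20651651, plus strand): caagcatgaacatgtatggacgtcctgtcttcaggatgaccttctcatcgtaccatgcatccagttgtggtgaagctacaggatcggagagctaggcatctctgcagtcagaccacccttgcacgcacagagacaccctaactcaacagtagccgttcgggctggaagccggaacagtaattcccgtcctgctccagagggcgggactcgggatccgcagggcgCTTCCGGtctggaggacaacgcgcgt
Psmc6 (chr14:45329574-45329787, plus strand): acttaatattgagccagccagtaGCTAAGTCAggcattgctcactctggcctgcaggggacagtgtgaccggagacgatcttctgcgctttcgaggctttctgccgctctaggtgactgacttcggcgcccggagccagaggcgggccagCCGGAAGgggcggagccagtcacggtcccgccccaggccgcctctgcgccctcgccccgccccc

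In the 250 bases before the start, on both strands, TGACNNNGC was found in 5 of the 42 promoters (11.9%, beside 10.2% of 32851 promoters), those of Psmb5, Psmb6, Psmc6, Psmd9 and Psmd12. CCGGAAG was found in 13 promoters (31.0%, beside 6.91%), of 12 genes: 8 of 14 matched regulatory genes, 1 of 13 core genes and 3 of 12 others. CCAAT, the box bound by NF-Y, was found in 13 promoters (31.0%, beside 33.8%), of 7 core, 4 regulatory and 2 other genes. A match is a description of letters and was not tied to binding. The shares over all promoters were not matched for GC content, so an excess cannot be called particular to proteasome genes. Genes with TGACNNNGC had differences between groups of -0.27 (Psmb5), -0.25 (Psmb6), -0.20 (Psmd9), -0.15 (Psmd12) and 0.09 (Psmc6). Those with CCGGAAG ran from -0.26 (Psmd4) to 0.45 (Psme4), with Psmd2 at -0.21 and Psmd6 at -0.02.

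In the base of the regulatory particle, the ATPases Psmc1 to Psmc6 unfold substrates, and 5 of 6 had a lower mean (4 of 6 after quantile scaling), with a median of -0.20. Psmc3 was at 52.7, 28.7, 46.2, 36.9 and 44.1 RPKM in control 1, 2, 3, 4-5 and 6 and at 36.3, 30.5, 35.1, 29.0, 35.5 and 36.4 RPKM in toxicant 1 to 6. All toxicant libraries lay between control 2 and control 4-5. The difference was -0.27 ± 0.14 (41.7 ± 9.22 against 33.8 ± 3.21 RPKM, adjusted p = 0.258, limma). Psmc6 (ENSMUSG00000021832, chr14:45329788-45349705) was ordered the other way, at 10.4, 16.1, 10.5, 13.5 and 13.1 RPKM in control and 10.1, 14.4, 14.2, 14.03, 13.3 and 14.7 RPKM in toxicant libraries. Control 2 was its highest library. Its difference was 0.09 ± 0.13 (adjusted p = 0.624, limma) and -0.13 with the share covariate.

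The 3 tested non-ATPase genes of the base all had lower means (2 of 3 after quantile scaling). Psmd2, a scaffold that binds shuttle proteins that deliver substrates, was at 49.8, 26.9, 45.2, 33.2 and 44.0 RPKM in control and 36.1, 29.7, 33.8, 30.9, 35.6 and 35.1 RPKM in toxicant libraries, -0.21 ± 0.14 (adjusted p = 0.332, limma). Psmd4, a ubiquitin receptor, was at 25.3 ± 4.89 and 20.8 ± 2.35 RPKM, -0.26 ± 0.13 (adjusted p = 0.254, limma). In both genes controls 1, 3 and 6 stood above all toxicant libraries and control 2 did not. The share covariate left 0.09 for Psmd2 and 0.0095 for Psmd4.

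All 8 lid genes had lower means (6 of 8 after median-ratio and 5 of 8 after quantile scaling), with a median of -0.17. Psmd11, a lid scaffold, was at 10.3, 7.78, 9.54, 9.11 and 9.51 RPKM in control and 9.31, 7.56, 7.51, 7.31, 8.06 and 8.46 RPKM in toxicant libraries. Toxicant 1 lay within the 4 higher controls, and the other toxicant libraries lay below them. Its difference was -0.19 ± 0.09 (adjusted p = 0.243, limma). Psmd14, the metalloprotease that cuts ubiquitin chains off the substrate, was at 13.5 to 15.6 RPKM in control (median 14.5) and 12.9 to 14.99 RPKM in toxicant libraries, with a difference of -0.04 ± 0.07 (adjusted p = 0.660, limma) that was 0.07 after either scaling. With the GC trend of each library removed, a setting chosen after seeing the data, its difference was -0.32 ± 0.14 (adjusted p = 0.338, limma), the lowest of the members in that fit. Control 2, at 14.5 RPKM, was not low for this gene.

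Of the chaperones that build the base, Psmd9 was at 3.94 ± 0.745 and 3.32 ± 0.212 RPKM, -0.20 ± 0.11 (adjusted p = 0.265, limma), and 25.5% of its exon bases are shared with a gene on the opposite strand. Psmd10, also called gankyrin and located on the X chromosome, was at 5.66 ± 0.910 and 6.15 ± 0.621 RPKM, 0.12 ± 0.10 (adjusted p = 0.418, limma). The 4 chaperones of core assembly, Psmg1 to Psmg4, all had lower means (3 of 4 after median-ratio scaling), with a median of -0.20. Psmg4 was at 10.4, 6.40, 8.02, 7.70 and 9.41 RPKM in control and 6.13, 7.24, 8.29, 4.5999, 4.67 and 8.58 RPKM in toxicant libraries. Its difference of -0.35 ± 0.17 had the largest size below 0 among the members (adjusted p = 0.256, limma), on a mean of only 112 reads per library.

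Activators replace the regulatory particle at the end of the barrel, and Psmf1 is an inhibitor. Psme1 and Psme2, the interferon-responsive pair of one activator, were at 10.5 ± 2.57 and 8.91 ± 0.847 RPKM and at 8.32 ± 1.94 and 7.32 ± 0.974 RPKM, with differences of -0.20 ± 0.14 and -0.15 ± 0.14. Across the 11 libraries their deviations from the group means had a Pearson r of 0.978, given as a description. Psme3, the nuclear activator, was at 28.1 ± 3.70 and 24.3 ± 2.66 RPKM, -0.20 ± 0.10 (adjusted p = 0.265, limma). Psmf1 was at 3.59 ± 0.442 and 3.14 ± 0.266 RPKM, -0.16 ± 0.09 (adjusted p = 0.265, limma).

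Psme4 (ENSMUSG00000040850, chr11:30771726-30880361) encodes a large nuclear activator known for histone degradation, and had the largest difference of any member. It was at 1.46, 5.74, 1.85, 3.99 and 2.15 RPKM in control 1, 2, 3, 4-5 and 6 and at 2.49, 5.25, 4.77, 4.47, 3.27 and 3.64 RPKM in toxicant 1 to 6. Controls 1, 3 and 6 lay below all toxicant libraries, while control 2 lay above them all. The difference was 0.45 ± 0.28 (3.04 ± 1.80 against 3.98 ± 1.03 RPKM, adjusted p = 0.307, limma). Without control 2 it was 0.69 with an adjusted p of 0.0372, the lowest over 21 alternatives, which ran up to 0.641, and with the share covariate it was -0.17.

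**Figure D4:**
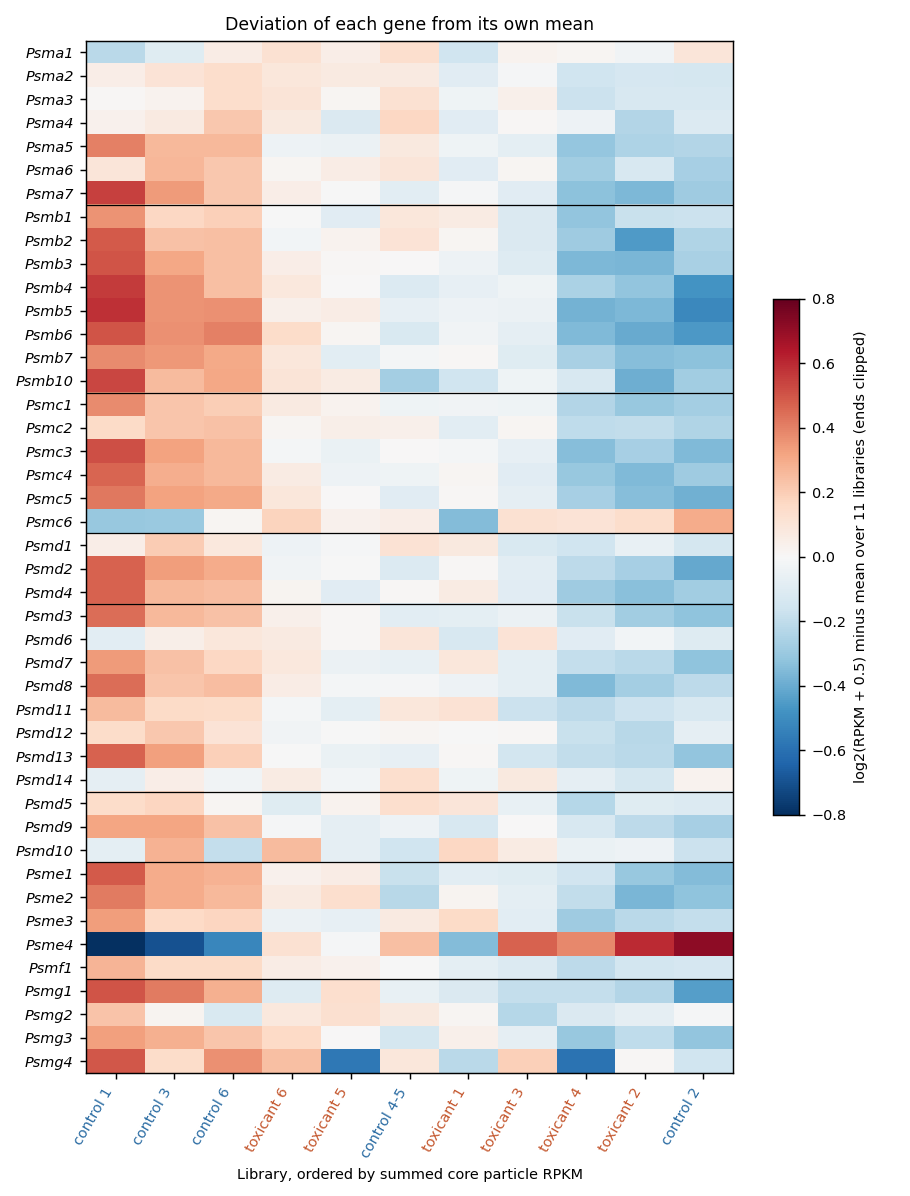
Deviation of each tested proteasome gene in each library from its mean over libraries, in log2(RPKM + 0.5), with genes ordered by role and libraries by the summed level of the core particle (colour ends are clipped). Most genes are high in controls 1, 3 and 6 and low in control 2, toxicant 2 and toxicant 4, while Psme4 and Psmc6 show the reverse.

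The members varied together across libraries. For each gene, the deviations from its group mean over the 11 libraries were correlated with the mean of the other core genes; libraries share depth and composition, so this is a description. The median r was 0.936 for core, 0.951 for regulatory and 0.877 for the other members, beside 0.453 for all genes tested. An r above 0.9 was found for 8 of 15 core (53.3%), 11 of 17 regulatory (64.7%) and 5 of 12 other members (41.7%), beside 18.1% of all genes. Psmc1 (0.993), Psmb6 (0.989) and Psmc5 (0.989) followed the core most closely. Psme4 (-0.876), Psmc6 (-0.623) and Psma1 (-0.424) ran against it, and Psmd14 (0.066) did not follow it. Control 2 and toxicant 2 were the libraries whose core mean lay farthest from the median over libraries. Without control 2 and toxicant 2, the medians were 0.854, 0.890 and 0.746, beside 0.332 for all genes. Over those 9 libraries r was -0.735 for Psme4, -0.335 for Psmc6, -0.426 for Psma1 and -0.248 for Psmd14. Among other members it fell for Psma4 (0.556 to -0.124), Psmd1 (0.644 to 0.317), Psma3 (0.69 to 0.37), Psmd6 (0.358 to 0.064) and Psmd5 (0.631 to 0.382). For Psmg4 it rose, from 0.539 to 0.620.

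Psme4, Psmc6, Psma1 and Psmd14, the members with the lowest r, lay at the lower end of GC content, although other members there did follow the core. A weak r was also found at higher GC content, as in Psmd6 (0.358 at 45.9% GC), Psmg2 (0.355 at 46.4%) and Psmg4 (0.539 at 55.2%). Median GC content of the coding transcripts was 38.5% for Psme4, 38.9% for Psmd14, 41.0% for Psmc6 and 44.0% for Psma1, against 57.1% for Psmb5 and 58.5% for Psmb10. Psma2, at 41.3% GC, had an r of 0.834 with the core, Psmb1, at 44.6%, had 0.882, Psmb7, at 44.7%, had 0.972, and Psmc2, at 45.01%, had 0.939. Over the 44 members, GC content and the log2 difference had a Pearson r of -0.68 and a Spearman rho of -0.61, beside -0.48 and -0.50 over 13488 genes; genes share the same libraries. Below 42% GC the members' median difference was 0.02 (4 genes), beside 0.25 for all genes in that range. From 42% to 46% it was -0.15 (9 genes, all-gene 0.09) and from 46% to 50% it was -0.15 (9 genes, all-gene -0.08). From 50% to 54% it was -0.25 (15 genes, all-gene -0.16), and from 54% it was -0.20 (7 genes), close to the all-gene -0.17. With each library's GC trend removed, 41 of 44 members were below 0 (51.1% of all genes), with medians of -0.13, -0.08 and -0.05 for core, regulatory and other members, beside -0.0036 over all genes, and no member passed the test. GC content's part in the differences was not otherwise tested.

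**Figure D5:**
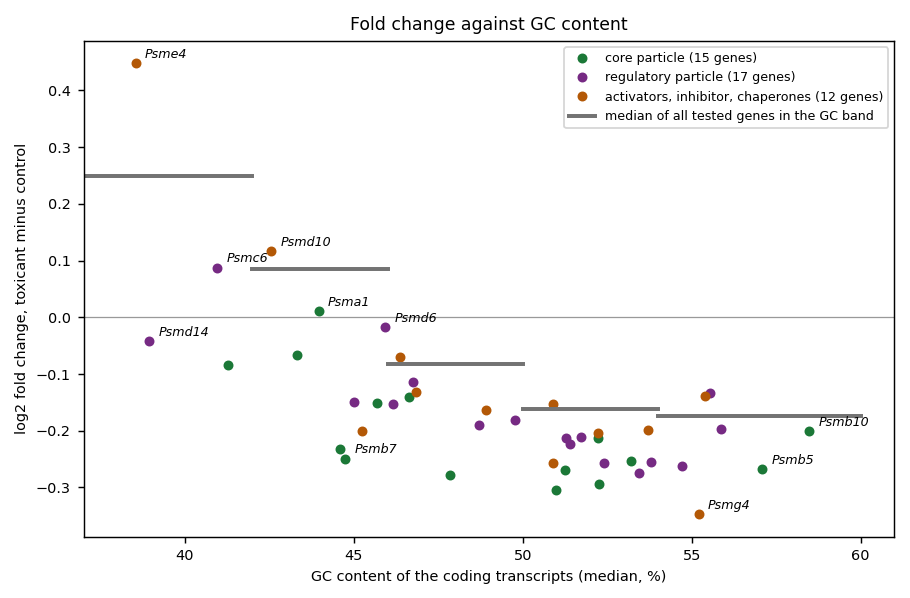
Log2 difference, toxicant minus control, of each of the 44 tested proteasome genes against the median GC percent of its coding transcripts, with bars for the median of all tested genes in each GC band. Psme4 stands at 0.45 and 38.5% GC, while all members above 50% GC lie below 0, down to Psmg4 at -0.35.

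For other genes of the pathway, chosen by function, a list of 36 symbols (some of them older names of a gene also listed) matched 32 genes of the table, and all 32 were tested. None was called. At an unadjusted p under 0.05, 5 were lower and 1 was higher (17.0% and 3.33% of all genes). A lower mean was found for 24 of 32 (75%, beside 70.0% of all genes) and a higher mean for 8, with a median of -0.16, so these shares were near those of all genes. Without control 2, 13 were lower and 4 higher past the test, beside 28.1% and 8.56% of all genes. Nfe2l1 was at 48.6 ± 9.61 and 41.6 ± 3.53 RPKM, -0.20 ± 0.13 (adjusted p = 0.304, limma). Pomp, the maturation factor of the core, was at 11.3 ± 1.85 and 10.01 ± 1.11 RPKM, and Adrm1, a ubiquitin receptor, at 13.6 ± 3.38 and 11.4 ± 1.497 RPKM (adjusted p = 0.354 and 0.356, limma). Sem1, a small lid subunit outside the naming rule, was at 6.79 ± 1.13 and 6.51 ± 0.612 RPKM, -0.05 ± 0.11 (adjusted p = 0.753, limma), with 0.06 after median-ratio and 0.03 after quantile scaling. Ubb, a ubiquitin gene, was at 896 ± 241 and 720.4 ± 82.7 RPKM, -0.28 ± 0.17 (adjusted p = 0.310, limma). Usp14 and Uchl5, which trim ubiquitin at the proteasome, had higher means, 0.12 ± 0.08 and 0.23 ± 0.13 (adjusted p = 0.309 and 0.287, limma). The smallest p on the lower side were those of Fbxo7, a ubiquitin ligase subunit, at -0.22 ± 0.07, and Ufd1, a cofactor of the unfolding ATPase, at -0.17 ± 0.07 (adjusted p = 0.211 and 0.223, limma). On the higher side they were those of Uba6, a ubiquitin-activating enzyme, at 0.36 ± 0.15, and Ube3a, a ubiquitin ligase, at 0.56 ± 0.28 (adjusted p = 0.230 and 0.258, limma). For Usp14, Uchl5, Uba6 and Ube3a control 2 was the highest control. With the share covariate their differences were 0.04, 0.04, 0.05 and -0.07, beside -0.22 for Fbxo7 and -0.09 for Ufd1.

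Markers of the hippocampus and its neighbours were measured beside the proteasome genes. The summed level of 8 neuronal markers was 676 to 996 RPKM in control and 610.0 to 763 in toxicant libraries, and 7 of 8 were lower, with a median of -0.30. Oligodendrocyte markers were at 679 to 764 and 471 to 647 RPKM (7 of 8 lower, median -0.51), microglial markers at 97.7 to 118 and 75.9 to 96.4 RPKM (8 of 8, -0.27), astrocyte markers at 264 to 362 and 243 to 296 RPKM (4 of 5, -0.14), and endothelial markers at 35.3 to 41.3 and 27.7 to 33.7 RPKM (6 of 6, -0.35). Of all genes tested 70.0% were lower, with a median of -0.11, and the astrocyte markers lay near these values. Choroid plexus markers, from tissue beside the hippocampus, ran from 16.4 to 2885 RPKM in control and from 14.9 to 1800 in toxicant libraries. Of these, 5 of 5 were lower, with a median of -0.74. Blood markers ran from 46.3 to 74.7 and 37.2 to 49.5 RPKM (2 of 2 tested were lower, median -0.45). Of the nuclear RNAs, 3 of 3 were higher, with 81.9 to 573 and 236 to 559 RPKM, and control 2 held the 573. No listed marker was at 0 in all libraries, and their part in the proteasome differences was not tested.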

How the data were processed

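The deposited table held 1 RPKM value for each gene and library, per the file headers; columns were matched to samples by the code in each sample's description. The aligner, counter, genome build, annotation and kit strandedness are each not given in the sources used here, so overlapping genes may share reads, and reads of near-identical copies may be split. The RPKM that the authors deposited were multiplied by exon lengths of GENCODE M21 (GRCm38), which recovered whole reads for 98.3% to 98.4% of a library's values within 0.05 reads. Intervals of counting error are not given here. Such error weighs most on genes with few reads, such as Psmb9 (a mean of 26.1 reads per library) and Psmc3ip (54.9). Coordinates are GRCm38, looked up by Ensembl ID.

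Genes averaging 0.5 RPKM or more were analysed as log2(RPKM + 0.5) with limma 3.58.1 in R 4.3.3 (lmFit, eBayes with trend, two-sided, no covariate, Benjamini-Hochberg over 13493 genes, threshold 0.05). A count model was not used on RPKM. The p-values measure the spread between these animals. Ratios used exact permutation tests (Python 3.11.15, scipy 1.17.1). On simulated data with 200 changed genes of 13493, the fit recovered 91% of those with a log2 change of 1, with 10 false calls. The simulated noise was independent between genes and the changes were 1 or 2. The recovery therefore does not apply to smaller differences or to genes that vary together, as the members did. Design and alternatives had named 12 samples; identical columns were counted once.

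Members and gene lists were chosen with earlier results of these data known. Full statistics were given for the catalytic genes, Psmd2, Psmd4, Psmd14, Psme3, Psme4, Psmf1, and per role the smallest p in each direction; of other pathway genes, 8 set by name, of which 1 is not reported here, and the 2 with the smallest p in each direction. Alternatives were other pseudocounts (0.1, 1), filters (none, 1 RPKM), median-ratio and quantile scaling, a covariate for each library's share on genes, the replicate number as a block, all 12 columns, each library left out and, added after seeing the data, removal of each library's GC trend. Promoters came from RefSeq (GRCm38.p6).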

Additional observations from a re-analysis of the deposited data

Results flagged for a closer look

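In groups of 5 or 6 libraries, 4 of 100 groups checked (50 genes) held a library that stood apart from the others by Dixon's criterion, which chance alone meets in about 5% of groups. Psma8 was at 0.109 RPKM in toxicant 2, against 0.0148 to 0.0424 in the other toxicant libraries, a level of few reads. Psmc6 was lowest in toxicant 1, at 10.1 RPKM, against 13.3 to 14.7. Psmd10 was highest in control 3, at 7.26 RPKM, against 5.10 to 5.55. Psmg1 was highest in toxicant 5, at 5.81 RPKM, against 4.40 to 4.85.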

How the results depend on the processing

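No member was called under any scaling, filter, pseudocount or covariate, with all 12 columns, or with any library left out other than control 2. Over the libraries left out in turn, 0 to 10 core, 0 to 11 regulatory and 0 to 5 other members were called, and 0 to 4932 genes in all, the upper values without control 2. Over all genes, 1 was called at a pseudocount of 0.1 and 9 with 12 columns. The medians ran from -0.36 to -0.16 for core, -0.27 to -0.13 for regulatory and -0.25 to -0.11 for other members over the libraries left out. They were -0.12, -0.08 and -0.06 after median-ratio scaling, where 35 of 44 members were below 0 (54.1% of all genes), and -0.07, -0.03 and -0.08 after quantile scaling. The core and regulatory medians were 0.016 and 0.019 with the share covariate.

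Whether the replicate numbers pair the samples could not be settled. Same-numbered deviations had correlations of -0.298 to 0.624, and 1 of 5 was highest with its own number. With the replicate number as a block, 0 genes were called and the medians were -0.24, -0.20 and -0.19. The block lowered the standard error for some members, from 0.130 to 0.069 for Psmb2 and from 0.172 to 0.092 for Psmb6. It did not for Psmd14, at 0.068 and 0.074. The adjusted p by limma with the block was 0.0998 for Psmb2 and 0.103 for Psmb6.

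The ratio of Psmb8 to Psmb5 was -0.10 at a pseudocount of 0.1, -0.0026 with 12 columns and -0.026 to 0.15 with libraries left out; Psmb9 to Psmb6 was -0.18 at a pseudocount of 0.1 and -0.051 to 0.17 with libraries left out; Psmb10 to Psmb7 was -0.0078 to 0.094 with libraries left out. With the share covariate, differences changed sign for Adrm1 (0.12), Nfe2l1 (0.057), Pomp (0.066), Psma1 (-0.073), Psmb10 (0.075), Psmb5 (0.12), Psmb6 (0.13), Psmb7 (0.033), Psmc3 (0.024), Psmc6 (-0.13), Psmd2 (0.0895), Psmd4 (0.0095), Psme4 (-0.17), Sem1 (0.14), Ubb (0.093) and Ube3a (-0.073). They also did after median-ratio scaling for Psmd14 (0.065) and Sem1 (0.057), after quantile scaling for Psmd14 (0.074) and Sem1 (0.026), with 12 columns for Psma1 (-0.013), and with the GC trend removed for Psma1 (-0.088), Psmc6 (-0.13), Psmd10 (-0.043) and Usp14 (-0.10). With libraries left out, Psma1 ran from -0.043 to 0.045 and Sem1 from -0.12 to 0.016. Causes of these changes were not tested. Without control 2, 21 named genes passed the test, some lower and some higher, beside 28.1% lower and 8.56% higher among all genes tested. Several of the named genes had been picked for a small p in these data, so this count is not a result about them. Psmg4 rested on the fewest reads of the tested members, a mean of 112 per library.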
